A study of Mus musculus with 6 samples.

Results

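AP-1 is a family of dimeric transcription factors, and 10 of its genes were followed here in the livers of wild-type and Entpd8 knockout mice: Fos, Fosb, Fosl1, Fosl2, Jun, Junb, Jund, Atf3, Maff and Batf. They were chosen by name, as listed Fos, Jun, Atf and Maf members of the family, and all 10 were found among the 45706 genes of the deposited table. All 10 also passed the low-count filter, which left 14069 genes for testing. Libraries of poly(A) RNA came from whole liver, 3 from wild-type mice (WT 1, WT 2 and WT 3) and as many from mice lacking Entpd8 (KO 1, KO 2 and KO 3). NTPDase8, the product of that gene, is a cell-surface enzyme that breaks down nucleotides outside the cell. The title of the series places the work in liver ischemia-reperfusion injury. The labels give neither surgery, treatment or sampling time for these livers nor the strain, sex or age of the mice, and they do not say how the allele was made or that the 3 samples of a group came from separate animals. The p-values therefore measure the spread between these samples, which may be partly technical.

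Library totals ran from 32768774 to 46473531 estimated counts. Wild-type libraries held 1416, 876 and 2034 counts of Entpd8, whereas knockout libraries held 15, 29 and 52, so the targeted transcript was low in each library labelled knockout. Hepatocyte markers were abundant in every library, with 60598 to 77403 CPM (counts scaled to a common library size by the trimmed mean of M-values, TMM) summed over 8 markers in wild type and 66282 to 86481 CPM in knockout. The share of mitochondrially encoded transcripts was 6.52% to 8.34% in wild-type and 10.1% to 11.7% in knockout libraries, and hemoglobin transcripts made up 0.0308% to 0.0486% and 0.0997% to 0.145%. Both shares were higher in all 3 knockout libraries, and their part in the results below was not tested.

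AP-1 proteins bind DNA as pairs joined through a leucine zipper. Jun proteins pair with one another or with a Fos protein, whereas Fos proteins need a partner from outside their own group. Fos, Jun, Fosb, Junb and Atf3 are immediate-early genes, whose transcripts are made within minutes of a stimulus without new protein synthesis and are short-lived. Liver induces them after partial hepatectomy, ischemia, oxidative stress and tissue handling. Jun is needed for hepatocyte survival and regeneration.

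Transcripts of 9 of the 10 genes rose in knockout livers and none fell. Jun (8.85-fold), Atf3 (8.71-fold), Fos (7.82-fold) and Maff (7.68-fold) were highest in fold, Junb (1.96-fold) and Fosb (2.45-fold) rose less, and Fosl2 (1.52-fold) did not pass. The median log2 fold change of the 10 was 1.96, against -0.02 over all genes tested. Of all genes tested, 9.8% were called higher and 10.6% lower at an adjusted p under 0.05 (edgeR's quasi-likelihood test, Benjamini-Hochberg over 14069 genes). No member was lower even at an unadjusted p under 0.05, and DESeq2 and limma voom also called 0 lower, with 10 and 8 called higher. For all 10 genes the lowest knockout library lay above the highest wild-type library, a pattern that 18.7% of all genes tested showed. None lay wholly below wild type, as 22% of all genes did. A log2 fold change of at least 2 with a call was seen for 5 members, Fos, Fosl1, Jun, Atf3 and Maff, and for 1.4% of all genes.

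**Figure D1:**
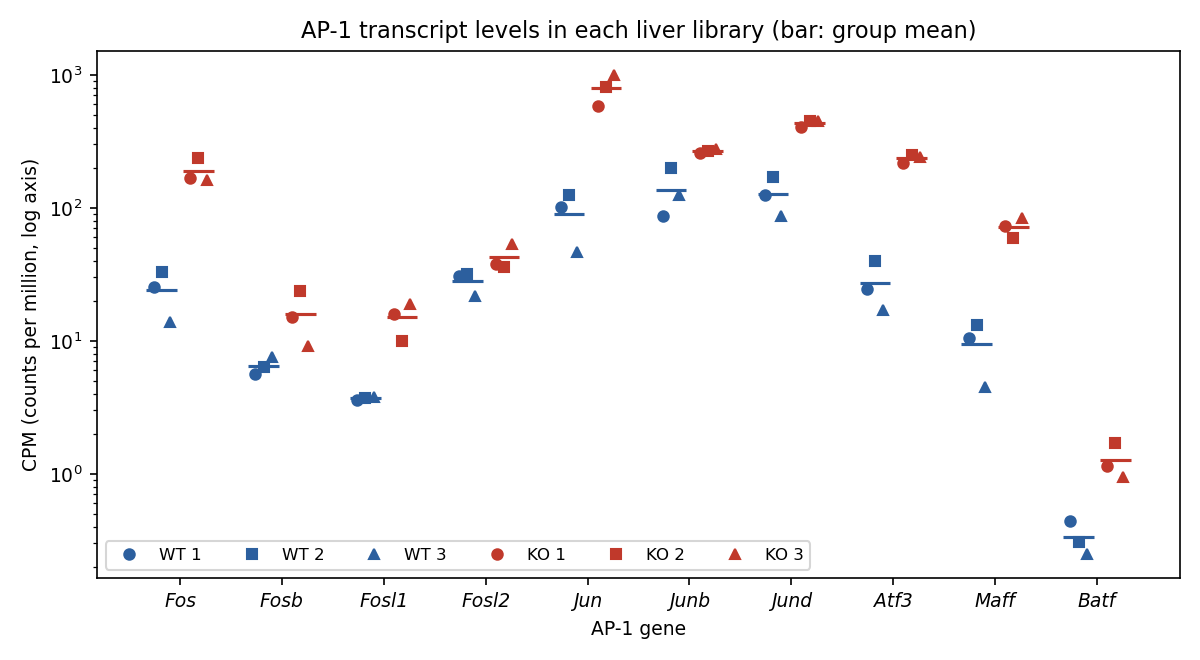
CPM of the 10 AP-1 genes (log axis) in each library, with wild-type libraries in blue, knockout libraries in red, marker shape giving the replicate number and bars the group means. The groups do not overlap for any of the 10 genes, and the smallest gaps are those of Fosl2 and Fosb.

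The proximal promoters of 4 members with the largest rises and of 2 with smaller ones are given to show the sequence beside which these transcripts start. Each line holds the 120 bases before a RefSeq transcription start, 5′ to 3′ on the gene's strand (GRCm38.p6), and capitals mark TGACG on either strand, the core of the cAMP response element, or its longer relative TGACNTCA. These elements are known to be bound by CREB, ATF and Jun dimers. Maff has 3 RefSeq starts, and the one shown lies at 79347520. Every stretch shown holds a marked match. The windows of Fosl2, of Jund and of the Maff start at 79346621, which are not shown, hold none.
Fos (chr12:85473770-85473889, plus strand): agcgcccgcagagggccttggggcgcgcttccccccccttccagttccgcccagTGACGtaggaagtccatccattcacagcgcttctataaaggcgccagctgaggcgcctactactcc
Jun (chr4:95052223-95052342, minus strand): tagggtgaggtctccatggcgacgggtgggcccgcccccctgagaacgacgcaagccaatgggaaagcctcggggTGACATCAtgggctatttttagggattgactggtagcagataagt
Atf3 (chr1:191183334-191183453, minus strand): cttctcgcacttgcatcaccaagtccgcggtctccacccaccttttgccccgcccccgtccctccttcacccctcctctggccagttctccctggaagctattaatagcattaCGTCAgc
Maff (chr15:79347400-79347519, plus strand): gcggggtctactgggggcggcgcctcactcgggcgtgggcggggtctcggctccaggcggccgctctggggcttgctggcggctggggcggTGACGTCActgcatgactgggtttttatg
Fosb (chr7:19310046-19310165, minus strand): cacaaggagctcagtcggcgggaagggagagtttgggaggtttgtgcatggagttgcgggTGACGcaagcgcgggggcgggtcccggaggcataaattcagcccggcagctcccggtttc
Junb (chr8:84978749-84978868, minus strand): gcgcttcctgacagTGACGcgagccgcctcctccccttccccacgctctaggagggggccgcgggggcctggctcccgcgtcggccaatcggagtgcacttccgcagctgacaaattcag

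RefSeq promoter windows matched 9 of the 10 genes, with 11 starts in all, and Fosl1 had no entry. In the 250 bases before a start, TGACG (either strand) was found for 6 of the 9 genes, Fos, Fosb, Junb, Atf3, Batf and Maff. Counted by window it was in 7 of 11, against 17.8% of 32851 such windows of all genes. The Fos window held it 2 times, from -129 to -125 and from -66 to -62 counted from the start, the second of which is shown above. TGACNTCA (either strand, overlapping TGACG where the N is G) was found for Jun, as TGACATCA from -45 to -38, and for Maff. It was in 3 of the 11 windows, against 7.49% of all windows. The Maff copy from -29 to -22 is the full palindrome TGACGTCA, which 1.55% of windows held. The AP-1 site itself, TGANTCA, was in none of the 11 windows and in 6.75% of all. The CArG box bound by serum response factor was in none of them and in 1.47% of all. With shares this low, 11 windows are too few for an absence to stand out, and bases further upstream were not searched. Fosl2, whose transcript did not pass, and Jund held none of these letters in their windows. The RefSeq start of Jund lies 1210 bases and that of Fosl2 299 bases from the nearest start in GENCODE M21, and the CGTCA of Atf3, 3 to 7 bases before its RefSeq start, lies inside a first exon that GENCODE starts 7 bases earlier. A match describes letters in a window only, and binding was not measured.

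Fos, the founding member, had 25.3, 33.1 and 13.8 CPM in WT 1, WT 2 and WT 3 and 168, 237 and 161 CPM in KO 1, KO 2 and KO 3. The lowest knockout library was 4.86 times the highest wild-type library. Fos rose by 2.97 ± 0.33 on the log2 scale (SE, adjusted p = 0.00325, edgeR). Fos (ENSMUSG00000021250) spans 85473890 to 85477273 of chromosome 12 (GRCm38, plus strand), and its longest transcript has 4 exons.

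The other 3 genes of the Fos family were expressed at lower levels per transcript length. Fosb, a close relative of Fos and also an immediate-early gene, had 5.59, 6.33 and 7.61 CPM in wild type and 15.01, 23.8 and 9.13 CPM in knockout. KO 3 was only 1.20 times the highest wild-type library, WT 3. Fosb rose by 1.29 ± 0.33 on the log2 scale (SE, adjusted p = 0.0311, edgeR), and the call was lost in 5 of 6 fits that left out a library (all but that without KO 3, adjusted p up to 0.0918). Testing all genes without filtering (adjusted p = 0.0541) and limma voom (adjusted p = 0.0563) ended it too. Without KO 2 its log2 fold change was 0.89.

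Fosl1, which encodes Fra-1 and lacks the C-terminal activation region of Fos, had the tightest wild-type values of the family, 3.58, 3.74 and 3.80 CPM. In knockout libraries it had 16.0, 9.99 and 18.9 CPM, so every knockout library was at least 2.63 times the highest wild-type one. Fosl1 rose by 2.01 ± 0.24 on the log2 scale (SE, adjusted p = 0.00313, edgeR). Fosl1 shares 1163 exon bases with Ccdc85b on the opposite strand, and whether the counting kept strands apart is not stated, so reads in that stretch may not be told apart. Ccdc85b had 146, 142 and 133 counts in wild type and 193, 189 and 253 in knockout, with a log2 fold change of 0.40 ± 0.17 that did not pass (adjusted p = 0.134). Fosl1 counts were 130, 146 and 137 in wild type, near those of Ccdc85b, and 630, 401 and 900 in knockout, well above them.

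Fosl2, which encodes Fra-2, was the only member whose difference did not pass. Its levels were 30.9, 31.6 and 21.7 CPM in wild type and 38.1, 36.1 and 53.6 CPM in knockout, and KO 2 was 1.14 times WT 2. The log2 fold change was 0.60 ± 0.20 (SE) with an adjusted p of 0.0677 (edgeR), and DESeq2 called it higher (adjusted p = 0.0304). It did not pass in any of the 6 fits that left out a library (adjusted p 0.0681 to 0.172). Within each library, Fos per transcript length was 1.98 to 3.25 times Fosl2 in wild type and 9.32 to 20.4 times in knockout. That within-library ratio does not depend on how libraries were scaled, and the groups did not overlap.

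Jun, the main partner of Fos, had the largest fold of the 10. Its levels were 101, 124 and 46.7 CPM in wild type and 585, 817 and 1003 CPM in knockout. Jun rose by 3.15 ± 0.39 on the log2 scale (SE, adjusted p = 0.00438, edgeR). It ranked 44 of 14069 genes by fold change and 177 by p. Jun (ENSMUSG00000052684) is a single-exon gene on the minus strand of chromosome 4 from 95049034 to 95052222, and the antisense transcript Junos, which shares 232 exon bases with it, had 3 to 12 counts per library against 1682 to 47697 for Jun.

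Junb, which can damp transactivation by Jun, changed less than Jun. It had 87.2, 198 and 126 CPM in WT 1, WT 2 and WT 3, a 2.27-fold range, and 259, 270 and 279 CPM in the knockout libraries, a 1.08-fold range. Junb rose by 0.97 ± 0.27 on the log2 scale (SE, adjusted p = 0.0402, edgeR). This call held in 1 of the 6 fits without a library, that without WT 2, where the log2 fold change was 1.34 (adjusted p = 0.00603). In the other 5 fits adjusted p ran from 0.0659 to 0.116, and it was 0.0527 with no low-count filter. Junb shares 173 exon bases with Prdx2 on the opposite strand, whose log2 fold change of 0.36 ± 0.13 did not pass (adjusted p = 0.0748).

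Jund, the Jun gene known for steady expression in resting cells, also rose. It had 125, 170 and 86.9 CPM in wild type and 407, 449 and 448 CPM in knockout, with a log2 fold change of 1.77 ± 0.23 (SE) and adjusted p = 0.00442 (edgeR). Its knockout libraries were within 1.10-fold of each other, and its lowest knockout library was 2.39 times its highest wild-type one. The antisense gene Gm11175 shares 877 exon bases with Jund, and its 17 to 33 counts in wild type and 74 to 114 in knockout libraries were far fewer than the 3129 to 21297 of Jund. Gm11175 was itself called higher, with a log2 fold change of 1.56 ± 0.32 (SE, adjusted p = 0.0151, edgeR). Reads in the shared stretch may not be told apart. Both Junb (84974484 to 84978718, minus strand) and Jund (70698949 to 70700616, plus strand) lie on chromosome 8, and the longest transcript of each has 1 exon.

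Atf3, a stress-induced factor that pairs with Jun proteins and represses many inflammatory genes, had the lowest p of the 10 genes and ranked 51 of all genes tested. It had 24.7, 39.8 and 17.2 CPM in wild type and 219, 252 and 241 CPM in knockout. The gap between the groups was the widest of the family, with the lowest knockout library 5.51 times the highest wild-type library. The log2 fold change was 3.12 ± 0.30 (SE), adjusted p = 0.00187 (edgeR), and it ran from 2.87 to 3.50 when each library was left out. Atf3 lies on the minus strand of chromosome 1 from 191170296 to 191218039. The RefSeq start whose promoter is shown, at 191183333, lies inside this span, and the bases before its 5′ end at 191218039 were not searched.

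Maff, a small Maf protein with no activation domain that pairs with Fos, Nrf2 and Bach proteins, had 10.5, 13.2 and 4.47 CPM in wild type and 73.2, 59.4 and 84.3 CPM in knockout. The log2 fold change was 2.94 ± 0.37 (SE), adjusted p = 0.00499 (edgeR). Its wild-type range was the widest of the 10 genes in fold, 2.96-fold between WT 3 and WT 2. Even so, KO 2, the lowest knockout library, was 4.48 times WT 2.

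Batf, an AP-1 factor best known from T and B lymphocytes, where it pairs with Jun proteins and binds with Irf4, was the least abundant member per transcript length. It had 16, 12 and 9 counts in wild type and 45, 68 and 45 in knockout, that is 0.333 ± 0.0980 CPM and 1.26 ± 0.388 CPM (SD, n = 3 per group). The log2 fold change was 1.91 ± 0.39 (SE), adjusted p = 0.0151 (edgeR), and it did not pass without KO 1 (adjusted p = 0.0582). T and NK cell markers summed to 1.83 to 2.20 CPM in wild type and 4.50 to 4.94 CPM in knockout. Of these, 1 of 6 tested (Cd3g) was called higher, and no marker of the list was at 0. B and plasma cell markers summed to 3.41 to 8.29 CPM and 29.2 to 49.97 CPM, with 2 of 4 tested called higher (Igkc and Jchain) and none at 0. Of all genes tested, 9.8% were called higher, and lists this short cannot be set firmly against that share. The part of these cells in the Batf difference was not tested. In bulk tissue, more cells of a type and more RNA per cell cannot be told apart, for Batf or for any other gene here.

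**Figure D2:**
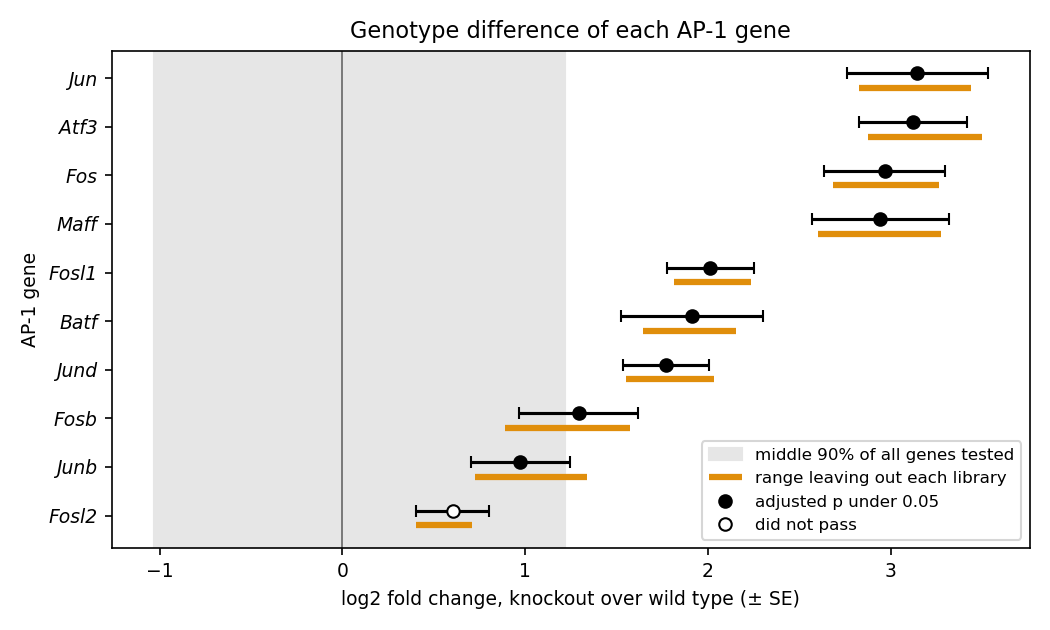
Log2 fold change of knockout over wild type for each AP-1 gene (points, with SE bars), filled where the adjusted p was under 0.05, with the range over 6 fits that each left out 1 library (orange). The grey band from -1.03 to 1.22 spans the middle of all 14069 genes tested, and 8 points, those other than Junb and Fosl2, lie beyond it.

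The 10 genes did not follow one order of libraries within a group. Among wild-type libraries, WT 2 was highest for 7 genes (Fos, Fosl2, Jun, Junb, Jund, Atf3 and Maff) and WT 3 lowest for 7 (Fos, Fosl2, Jun, Jund, Atf3, Maff and Batf). Fosb and Fosl1 went the other way, with their highest wild-type level in WT 3. Among knockout libraries, KO 2 was highest for Fos, Fosb, Jund, Atf3 and Batf, and KO 3 for Fosl1, Fosl2, Jun, Junb and Maff. KO 1 was highest for none and lowest for Jun, Junb, Jund and Atf3.

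Levels of different genes were compared as CPM per kb of the longest GENCODE M21 transcript. The 10 genes together came to 193, 302 and 161 CPM per kb in WT 1, WT 2 and WT 3 and to 818, 963 and 999.8 CPM per kb in KO 1, KO 2 and KO 3. In wild type the order of mean levels was Jund (76.4 ± 24.96 CPM per kb), Junb (75.7 ± 31.1), Jun (28.4 ± 12.4), Atf3 (13.7 ± 5.81), Fos (11.4 ± 4.61), Maff (4.80 ± 2.29), Fosl2 (4.29 ± 0.846), Fosl1 (1.99 ± 0.0614), Fosb (1.72 ± 0.270) and Batf (0.348 ± 0.103; SD, n = 3). Of these neighbours, Junb and Jun, Fosl2 and Fosl1, and Fosb and Batf had ranges that did not overlap, and the other neighbours overlapped. In knockout livers Jun stood second at 251 ± 65.7 CPM per kb, overlapping Jund at 261 ± 14.4, and ahead of Junb at 149 ± 5.60 CPM per kb with no overlap.

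Shares of the summed level are given as a description, with no test. Jun made up 12.8 ± 3.66% of the summed level per kb in wild type and 26.8 ± 4.51% in knockout, while Junb made up 34.8 ± 9.18% and 16.1 ± 1.18% (SD, n = 3). The share of Atf3 was 6.15 ± 0.693% and 12.9 ± 0.720%, and that of Fos 5.16 ± 1.08% and 9.69 ± 2.02%. None of these 4 shares overlapped between the groups. Nor did those of Jund (35.0 ± 3.44% and 28.2 ± 1.51%), Maff (2.14 ± 0.681% and 4.01 ± 0.756%) and Fosl2 (2.03 ± 0.420% and 0.702 ± 0.124%). The shares of Fosb, Fosl1 and Batf overlapped. The smallest p that an exact permutation test of 3 against 3 allows is 0.1. Jun family over Fos family levels per kb came to 7.69 to 10.3 in wild type and 5.20 to 7.59 in knockout libraries, a narrow gap. Jun over Junb was 0.658, 0.355 and 0.211 in wild type and 1.28, 1.72 and 2.04 in knockout libraries. The ratio of Fos to Jun overlapped between the groups, at 0.379 to 0.448 and 0.243 to 0.439, as did that of Maff to Atf3, at 0.264 to 0.429 and 0.239 to 0.355.

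These levels rest on the transcript length used, because which isoforms were present was not measured. With the mean length over all annotated transcripts, Junb stood above Jund in wild type, and the Fos share became 7.71% in wild type and 14.9% in knockout. The Jun share was then 9.90% and 21.5%, and the Junb share 41.9% and 20.3%. With either length the Jun, Junb, Atf3 and Fos shares did not overlap between the groups.

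**Figure D3:**
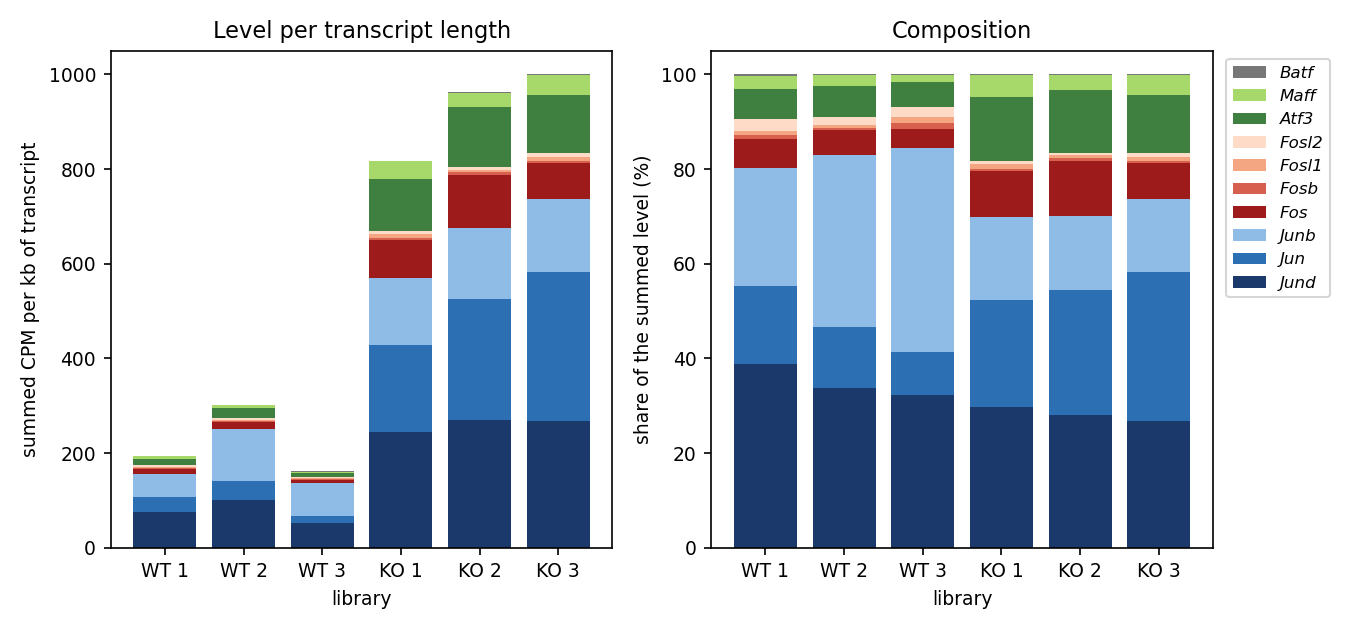
Left, CPM per kb of the longest transcript summed over the 10 AP-1 genes in each library, stacked by gene. Right, the same as percent of each library's sum: the Jun and Atf3 segments are larger and the Junb segment smaller in each knockout library, while the total on the left goes from at most 302 to at least 818 CPM per kb.

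Fos and Batf are neighbours on chromosome 12, 209 kb apart, with the AP-1 repressor Jdp2 between them. Of the 6 annotated genes in that stretch, Fos, Jdp2 and Batf were the 3 that passed the low-count filter. Jdp2 rose by 1.20 ± 0.34 on the log2 scale (SE, adjusted p = 0.0421, edgeR), from 1.60 to 3.68 CPM in the group means. Its call was lost with upper-quartile scaling and in 4 of the 6 fits without a library, where adjusted p reached 0.126. It held only without WT 1 and without KO 3.

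Other basic leucine zipper factors, which pair with AP-1 proteins or bind related sites, were called higher for 7 and lower for 2 of 23 tested, against 9.8% and 10.6% of all genes. Their median log2 fold change was 0.31. The 4 with the lowest p were the small Maf gene Mafk (1.40 ± 0.13), Nfe2l2 (1.36 ± 0.12), which encodes the antioxidant regulator Nrf2, and the repressors Bach1 (1.66 ± 0.23) and Bach2 (1.70 ± 0.25; log2 fold change ± SE, adjusted p 0.00136 to 0.00546, edgeR). These 4 passed in all 6 fits that left out a library. Named after their values were seen, Mafg, another small Maf, was at 0.09 ± 0.11 (adjusted p = 0.595) and Nfe2l1, a relative of Nfe2l2, at -0.21 ± 0.11 (adjusted p = 0.222), and neither passed. The remaining rises were those of Jdp2, Cebpd (0.97 ± 0.23) and Ddit3 (1.02 ± 0.29), and the falls those of Creb1 (-0.75 ± 0.16) and Cebpg (-0.61 ± 0.14). These calls were less stable: Cebpd passed in 2 of 6 fits with a library left out (adjusted p up to 0.0919), Cebpg in 3 (up to 0.102) and Creb1 in 5, all but that without KO 1 (0.0834). Ddit3 lost its call in 5 of 6 fits with a library left out, passing in that without WT 2, with adjusted p up to 0.116 in the others, and 4 and 5 factors in all were called without KO 1 and without KO 2.

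Transcripts of the MAP kinases that phosphorylate AP-1 proteins, and of their activators, were called higher about as often as all genes. Of 26 tested, 3 (11.5%, against 9.8% of all genes) rose and 0 (against 10.6%) fell in edgeR (1 lower at an unadjusted p under 0.05, and 0 with DESeq2 or limma voom), and the median log2 fold change was 0.08. The 3 were Map2k3, an activator of p38 (1.14 ± 0.13, adjusted p = 0.00303), Map3k8, which activates the ERK and JNK pathways (1.42 ± 0.20, adjusted p = 0.00498), and Map3k5, a kinase activated by oxidative stress (0.70 ± 0.13, adjusted p = 0.0103). Map3k5 did not pass without KO 1 (adjusted p = 0.0617). Map2k6, the other p38 activator of its class, stood at 1.24 ± 0.38 (adjusted p = 0.0546), and it passed in 4 of 9 other settings, those with RLE size factors, no filter, DESeq2 and limma voom. The JNK genes, named for their role in phosphorylating Jun, were at 0.20 ± 0.12 for Mapk8 and 0.28 ± 0.11 for Mapk9, and neither passed (adjusted p = 0.274 and 0.101). Kinase activity is set by phosphorylation, which transcript counts do not show.

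Genes that control AP-1 transcription, or the decay of its mRNA and protein, were also called higher about as often as all genes. Of 18 tested, 2 (11.1%, against 9.8% of all genes) rose and 0 (against 10.6%) fell in edgeR (2 lower at an unadjusted p under 0.05, and 1 with DESeq2 and 1 with limma voom), with a median log2 fold change of 0.07. Mef2d, a factor that can drive Jun transcription, was at 0.46 ± 0.11 (adjusted p = 0.0258) and passed in 2 of 6 fits with a library left out. Zfp36l2, a relative of tristetraprolin, was at 0.64 ± 0.18 (adjusted p = 0.0389) and passed in 1 of them, that without WT 1. Zfp36, tristetraprolin itself, which destabilises mRNAs with AU-rich elements such as that of Fos, was at 0.97 ± 0.32 and did not pass (adjusted p = 0.0659), and Det1, part of a ubiquitin ligase for Jun, was at -0.59 ± 0.18 (adjusted p = 0.0516). The count of 2 was 0 without WT 3, KO 1 or KO 2 and 1 without WT 1 or KO 3, but 5 without WT 2.

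Genes that textbooks give as AP-1 targets rose in 11 of 34 tested (9.8% of all genes were called higher) and fell in 0 (10.6% of all genes were called lower) by edgeR (1 lower at an unadjusted p under 0.05, 1 with DESeq2 and 0 with limma voom). Their median log2 fold change was 0.59. The 4 with the lowest p were Hbegf, a ligand of the EGF receptor (3.03 ± 0.35), the sphingosine kinase Sphk1 (2.75 ± 0.32), tissue factor F3 (2.15 ± 0.26) and the monocyte chemokine Ccl2 (2.62 ± 0.34; adjusted p 0.00303 to 0.00477, edgeR). The 7 others were Plaur, Ereg, Il6, Cxcl2, Lif, Hmox1 and Edn1, with log2 fold changes from 1.75 to 3.31. Of these, Plaur (adjusted p up to 0.0979), Ereg (up to 0.08004) and Cxcl2 (up to 0.112) each passed in 2 of 6 fits with a library left out. The remaining 4, like the 4 with the lowest p, passed in all 6. Targets tied to matrix turnover and the cell cycle, named after their values were seen, lay near 0 with wide errors in part: Timp1 at -0.04 ± 0.67, Mmp9 at -0.09 ± 0.54, Mmp13 at -0.03 ± 0.67, Cd44 at 0.28 ± 0.29 and Ccnd1 at -0.23 ± 0.21. None of these 5 passed (adjusted p 0.460 to 0.979).

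**Figure D4:**
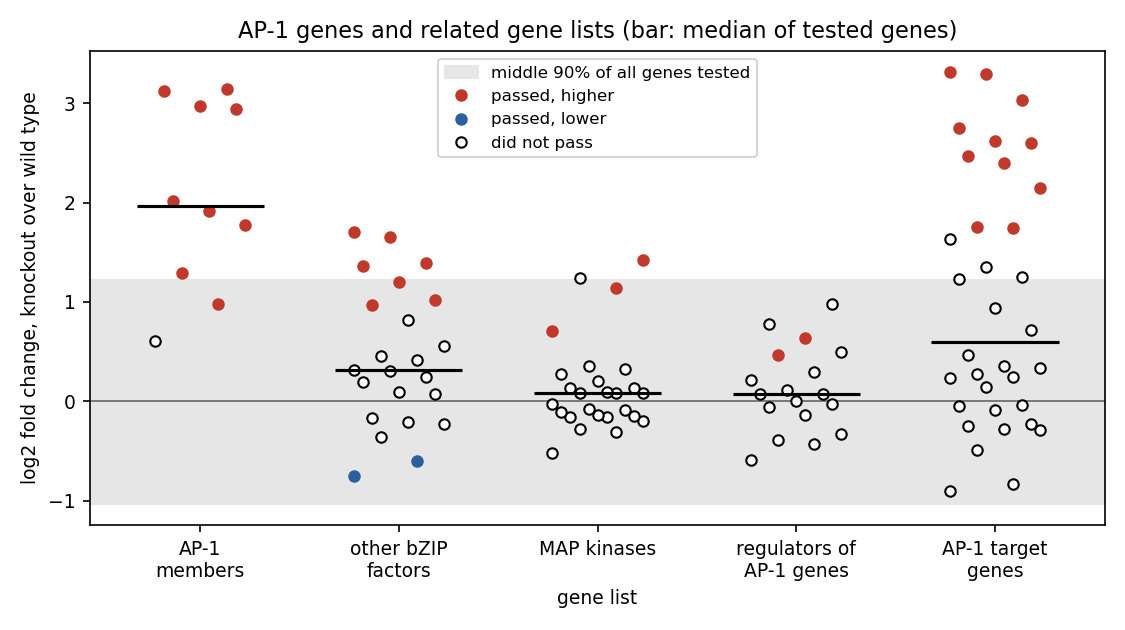
Log2 fold change of knockout over wild type for each tested gene of the 10 AP-1 members and of 4 related lists, with bars at list medians and the grey band from -1.03 to 1.22 spanning the middle of all genes tested. Medians are 1.96 for the AP-1 genes, 0.31 for other leucine zipper factors, 0.08 for kinases, 0.07 for regulators and 0.59 for target genes.

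Genes whose 6 values ran most like the mean standardised AP-1 profile were, among 10435 compared, Ppp1r15a, Dusp1, Nfkbiz, Hmgn1, Gadd45a and Mpc1 (Pearson r from 0.999 to 0.996 over 6 libraries). As both genotypes stand apart in each of them, r over these libraries mostly restates the genotype difference and is given as a description. Dusp1, the phosphatase that inactivates JNK and p38, had 36.4, 45.5 and 22.5 CPM in wild type and 184, 225 and 202 CPM in knockout. Ppp1r15a, a phosphatase subunit of the integrated stress response, had 22.1, 26.4 and 17.2 CPM against 80.1, 86.8 and 92.7 CPM. In both, WT 2 was the highest and WT 3 the lowest wild-type library, as for most AP-1 genes. Not all of the alike genes had large folds, since Hmgn1, a nucleosome-binding protein gene, had a log2 fold change of 0.61 and Mpc1, a mitochondrial pyruvate carrier subunit, of 0.72.

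Marker lists of other liver cells were read against the 9.8% of all genes called higher and 10.6% called lower. Like the T and NK and the B and plasma lists above, the Kupffer cell list stood clear of overlap between the groups. Of its 8 markers 5 (62.5%) were called lower, with sums of 102 to 241 CPM in wild type and 52.0 to 65.2 CPM in knockout libraries. Biliary markers summed to 18.4 to 43.6 and 41.8 to 58.7 CPM, an overlap, with 2 of 5 tested called higher (Krt19 and Epcam). Sox9 made up most of these sums, at 14.4 to 39.3 CPM in wild type and 33.1 to 44.3 CPM in knockout. Taken singly, Krt19, Krt7, Epcam and the untested Cftr lay wholly above wild type, as 18.7% of all genes tested did. Sox9 and Muc1 overlapped between the groups, and Muc1 had a negative log2 fold change (-0.41). Neutrophil markers summed to 16.7 to 110 and 73.3 to 102 CPM, so the groups overlapped, and Ngp, Camp and Mpo were at 0 in at least 1 library. Sinusoidal endothelial sums were 165 to 198 and 124 to 178 CPM and stellate cell sums 170 to 233 and 112 to 235 CPM. Both overlapped between the groups, and 1 of 8 markers (12.5%, Stab1 and Col1a1) was called lower in each, near the share of all genes. No Kupffer, biliary, endothelial or stellate marker was at 0 in any library. The part of these cells in the AP-1 differences was not tested.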

How the data were processed

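Gene-level estimated counts, made by the authors from their reads and as deposited 1 column per liver library, were not scaled to a common total. The submitters' processing notes name Trim Galore, STAR, Salmon and GRCm38. Versions, settings and order of these steps: not given in the sources used here. Between 8.38% and 9.32% of genes per library had values that were not whole, as reads shared by close paralogs are divided by a model. Samples were grouped by title, and none was left out.

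Rounded counts were filtered with filterByExpr and scaled by TMM. Of 45706 genes, 45143 matched a symbol in GENCODE M21 (GRCm38). The 14069 genes left were tested with edgeR 4.0.16 in R 4.3.3 (quasi-likelihood, two-sided, genotype alone, adjusted p threshold 0.05). The SE of a log2 fold change is its size over the root of the F statistic. The fit was tested on simulated counts. Duplicated libraries were looked for, and any pair within a group differed by at least 34.1 times counting noise. Alternatives were other scalings and filters, DESeq2 1.42.0, limma 3.58.1 voom, the replicate number as a block, leaving out mitochondrially encoded and hemoglobin genes, and leaving out each library. The 10 members and all lists were chosen with earlier results of these data known. The genes named are all 10 members, up to 4 per list by lowest p with a mean log2 CPM of at least 0, list genes whose calls ended under an alternative, and the 6 genes most like the members with a mean log2 CPM of at least 1 (other than predicted models, Riken clones or pseudogenes). Other list genes were named after their values were seen. Promoter sequences are those of RefSeq, build GRCm38.p6. Matplotlib 3.10.9 (Python 3.11.15) drew the figures.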

Additional observations from a re-analysis of the deposited data

How the results depend on the processing

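All 10 AP-1 genes had positive log2 fold changes in each setting that tested them (the stricter filter left out Batf), and 7 to 10 were called in the 9 other settings and 6 to 8 with a library left out. Fos, Fosl1, Jun, Jund, Atf3 and Maff passed in every one of these fits. Genes called in all numbered 2871, and 603 (without KO 1) to 3080 (without WT 2) with a library left out. The other leucine zipper factors called then numbered 4 to 11, the regulators 0 to 5, the kinases 2 to 4 and the target genes 8 to 12. Regulators called were 1 with library totals alone and 5 with DESeq2, against 2, and the cause was not tested. Replicate numbers were shared between genotypes, and what they mark is not stated. Deviations of same-numbered libraries correlated at -0.0762, 0.0126 and -0.0853, within the -0.118 to 0.164 of differently numbered ones. With 3 libraries per group, this cannot tell whether same-numbered libraries shared a day or batch. With the replicate number as a block, 1468 genes, 8 AP-1 genes and 0 regulators were called, and Fosb (adjusted p = 0.0749) and Fosl2 (adjusted p = 0.159) were not among them. The block also ended the calls of Jdp2 (adjusted p = 0.0513), Creb1 (0.0538), Cebpg (0.0664), Mef2d, Zfp36l2, Plaur, Ereg and Cxcl2, so no other leucine zipper factor was called lower with it. Without the low-count filter, Ddit3, Plaur and Cxcl2 (adjusted p = 0.151) also lost their calls. Scalings moved the median of all genes by at most 0.076 on the log2 scale, downward with library totals alone. At 9 to 68 counts per library, Batf is the member whose precision depth limits most.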
